A study of Mus musculus with 12 samples.

Results

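Mouse embryonic stem (ES) cells without Dnmt3a and Dnmt3b were compared with wild-type ES cells after 72 h in an inhibitor of the kinase mTOR. The comparison held 4 of the 12 RNA-seq libraries of the series, 2 from the line labelled E14 DNMT3ABKO and 2 from the line labelled E14 KH, called DNMT3ABKO and KH here. Genes were kept where the mean level over these 4 libraries was at least 1 TPM (transcript abundance scaled to transcript length and to the total of the library), which left 15689 of 54446 genes. The other 8 libraries held the same lines at 0 h, without inhibitor, and at 144 h, with 2 libraries each. The series asks how ES cells enter a state like embryonic diapause, a reversible arrest of the blastocyst, and whether DNA methylation takes part. Both groups received Ink128, the inhibitor that the study used to induce this paused state in culture, so that no untreated culture of 72 h stands beside them.

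Each genotype was 1 cell line. The study gives the wild-type line as KH2 and lists it and the knockout line under the same source laboratory. The labels prefix both with E14, the name of a different line. Whether the knockout was made from KH2 cells is not stated in the sources used here. With 1 line per genotype, genotype and line cannot be told apart. Both were described as grown on mitomycin-treated feeder cells, and cells were sorted before RNA extraction. The labels do not say whether the 2 libraries of a group came from separate cultures, and the parts of Dnmt3a and Dnmt3b removed are not given in the sources used here.

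DNMT3A and DNMT3B are the enzymes that place new methyl groups on cytosines of CG dinucleotides, DNMT3L is a cofactor without catalytic activity of its own, and DNMT1 with UHRF1 copies the marks at replication. TET enzymes oxidise methylated cytosine and so start its removal. In ES cells, promoter methylation is best known for keeping a set of germline genes and X-linked gene families silent and for marking the parental alleles of imprinted genes.

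Libraries of a group were close to each other, and 1 pair outside the comparison was less so. The correlation of log2(TPM + 1) between the 2 libraries of a group was 0.994 to 0.996 in 5 of the 6 groups and 0.986 for DNMT3ABKO at 0 h, whose residual standard deviation was 0.269 against 0.135 in KH and 0.142 in DNMT3ABKO at 72 h. ES cell markers were high in all 4 libraries, with the TPM of 11 genes summing to 6816 and 6663 in KH and to 6537 and 6568 in DNMT3ABKO. Markers of fibroblasts, which serve as feeder cells, and of macrophages were also detected, and their source was not tested. The 28 fibroblast markers summed to 2472 and 2420 TPM in KH and to 2064 and 1930 TPM in DNMT3ABKO, and 6 of the 27 tested were called lower (0 to 3 with 1 of the 4 libraries left out, 13 without the DNMT3ABKO libraries of 0 h) and 1 higher. The 16 macrophage markers summed to 275.8 and 268 TPM in KH and to 179.3 and 183.1 TPM in DNMT3ABKO, with 13 called lower (6 to 8 with 1 of the 4 libraries left out). No gene of these 3 marker lists was listed at 0 in any of the 4 libraries. Y-linked genes went the other way, with 9 listed genes summing to 31.6 and 34.1 TPM in KH and to 131 and 119 TPM in DNMT3ABKO. Of the 5 tested, 2 had a KH mean below 1 TPM and passed the filter only through DNMT3ABKO. The 3 with a mean of at least 1 TPM in both lines were called higher. Over all tested genes, 8.92% were called higher and 9.91% lower. In bulk RNA, fewer cells of a type and less RNA per cell cannot be told apart.

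The targeted genes came first. Dnmt3b stood at 181 and 173 TPM in the KH libraries and at 25.9 and 24.1 TPM in the DNMT3ABKO libraries, a log2 difference of -2.78 (SE 0.063, limma adjusted p = 7.1e-09). Dnmt3a stood at 62.7 and 59.1 TPM in KH and at 14.4 and 10.2 TPM in DNMT3ABKO, a difference of -2.24 (SE 0.28, limma adjusted p = 0.00045). Both fell well below the KH libraries, and neither was listed at 0. Dnmt3c, the paralogue next to Dnmt3b on chromosome 2 that methylates young retrotransposons in male germ cells, was at 4.32 and 4.34 TPM in KH and at 0.331 and 0.307 TPM in DNMT3ABKO. Its sequence is close to that of Dnmt3b, so the split of reads between these genes is uncertain.

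Of the other 7 enzymes and cofactors of the pathway, 2 were called higher and none lower, where 8.92% of all tested genes were higher and 9.91% lower. Dnmt3l rose from 442 and 429 TPM in KH to 662 and 658 TPM in DNMT3ABKO (log2 difference 0.60, SE 0.054, limma adjusted p = 4.3e-05). Tet3 rose from 5.20 and 5.06 TPM to 8.59 and 8.03 TPM. At 0 h the difference between the lines was -0.04 for Dnmt3l and -0.22 for Tet3, neither called, and the change of the difference from 0 h to 72 h was called for both. The remaining 5 were not called at 72 h, with a log2 difference of -0.04 for Dnmt1, 0.14 for Uhrf1, 0.03 for Tet1, -0.31 for Tet2 and 0.05 for Tdg, the glycosylase that removes oxidised bases. Tet2 was at 88.6 and 90.9 TPM in KH and at 74.2 and 70.6 TPM in DNMT3ABKO. Its libraries thus did not overlap, as for the 40% of all tested genes that lay below, while those of Tet1 did. Uhrf1 and Tet2 were called when the model held only the 4 libraries of 72 h, and also without the DNMT3ABKO libraries of 0 h.

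Across all genes, 2954 of 15689 (18.8%) were called at 72 h, under an adjusted p of 0.05 in limma. They divided into 1400 higher in DNMT3ABKO (8.92%) and 1554 lower (9.91%). TPM are shares of a library, so a change in total RNA per cell is not seen in these values. The higher group reached further. Called genes had a median log2 difference of 0.63 when higher and of -0.45 when lower, and a log2 difference of at least 1 was called for 387 genes higher (2.47%) and 74 lower (0.472%). The 2 libraries of 1 line lay beyond those of the other for every called gene, and over all tested genes DNMT3ABKO lay above KH in 4692 and below it in 6279. The median log2 difference of all tested genes was -0.04. Leaving out 1 of the 4 libraries lowered the count to between 1336 and 1457, and leaving the 2 uneven DNMT3ABKO libraries of 0 h out of the model raised it to 4475.

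**Figure D1:**
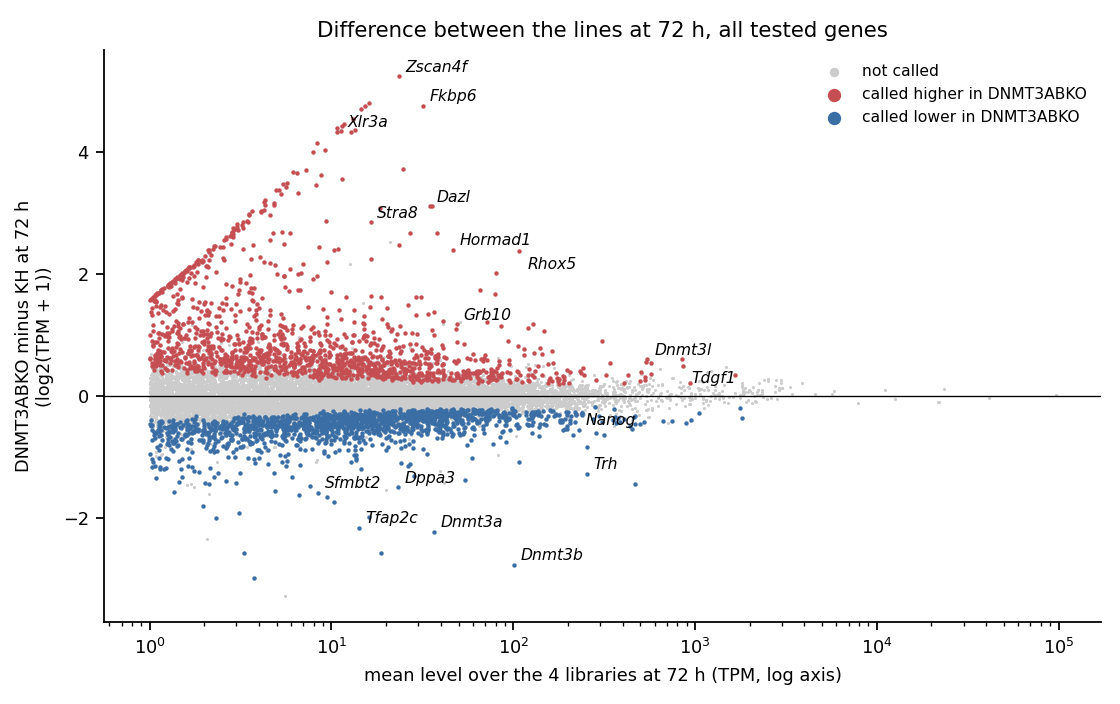
Each point is 1 of the 15689 tested genes, with its mean TPM over the 4 libraries at 72 h on a log axis and the log2(TPM + 1) difference, DNMT3ABKO minus KH, on the vertical axis. Called genes are red where higher in DNMT3ABKO (1400) and blue where lower (1554). The straight upper edge at the left holds genes that were near 0 TPM in KH, for which the mean level fixes the difference, and the points far below 0 are few, with Dnmt3b and Dnmt3a among them.

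The kinds of gene among the large differences were unequal. Protein-coding genes gave 269 of 12524 higher by at least 1 and 50 lower. Long intergenic RNAs gave 30 of 331 higher and 1 lower. Among unprocessed pseudogenes, which arise by duplication of a gene, 32 of 117 were higher (27.4%) and 0 lower. Micro-RNA rows went the other way, with 1 of 271 higher and 13 lower, and 12 of these 13 were near-identical rows inside the gene Sfmbt2. A gene near 0 TPM in 1 line passes the filter only when it is higher in the other, so the shares depend on the filter. These shares were read against 2.47% and 0.472% over all tested genes, with no test of the gene types.

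Genes of the 2-cell embryo held the largest differences of the comparison, led by Zscan4f. These genes, Zscan4 and its partners, are switched on in the embryo when its own genome is first transcribed, and in ES cultures they mark a small and fluctuating group of cells. Zscan4f was at 0.216 and 0.305 TPM in KH and at 47.5 and 45.7 TPM in DNMT3ABKO, a ratio of means of 179 and a log2(TPM + 1) difference of 5.24 (SE 0.12, limma adjusted p = 7.1e-09). Tmem92 was listed at 0.0981 and 0 TPM in KH and at 8.94 and 7.996 TPM in DNMT3ABKO. Usp17le, of a family of ubiquitin proteases, was at 0.0568 and 0.0236 TPM in KH and at 10.2 and 9.42 TPM in DNMT3ABKO. Every one of these was nearly absent in KH and present in both DNMT3ABKO libraries.

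Of 29 genes listed for this state, 22 were tested, all with a KH mean below 1 TPM. They passed the filter only through DNMT3ABKO and had to be higher there, so their number called is not a result. The 29 together summed to 2.43 and 2.65 TPM in KH and to 270 and 270 TPM in DNMT3ABKO, and 7 and 6 of them were listed at 0 in the KH libraries against none in either DNMT3ABKO library. Duxf3, the row for the transcription factor upstream of this set, was at 0.0256 and 0.0556 TPM in KH and at 3.38 and 3.88 TPM in DNMT3ABKO. Zscan4, Usp17l, Tcstv and Pramef rows are near-identical copies, so the value of a single row is uncertain and the sum of a family is the safer value. Sums over the 9 Zscan4 rows were 1.19 and 1.33 TPM in KH and 244 and 241 TPM in DNMT3ABKO.

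Some of the genes with large differences lay next to each other. At 20 places, at least 3 neighbouring tested genes were all called the same way with a log2 difference of at least 1. Every such run was higher in DNMT3ABKO, and the runs held 121 of the 387 genes higher by at least 1. The longest held 20 genes over 844 kb of chromosome 12 (chr12:87480108-88324026, mm10), most of them predicted genes and 1 of them BB287469, and summed to 3.26 and 2.699 TPM in KH and to 194 and 188 TPM in DNMT3ABKO. On chromosome 5, 18 genes (chr5:93924777-95746617) summed to 0.315 and 0.197 TPM in KH and to 54.0 and 56.4 TPM in DNMT3ABKO. The Zscan4 run on chromosome 7 (chr7:10794242-11983912) held 11 genes. A further 7 genes around Tdpoz3 on chromosome 3 (chr3:93826020-94266784) summed to 0.0682 and 0 TPM in KH and to 19.3 and 19.4 TPM in DNMT3ABKO. Members of these runs are copies of each other in large part, and like the 2-cell list most were near 0 TPM in KH. Genes with a KH mean below 1 TPM passed the filter only through DNMT3ABKO and had to be higher there. The number and direction of the runs are therefore not a result.

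Of the 4 runs on the X chromosome, the longest 2 held germline gene families, and the others held 3 genes each, 1 of them ferritin-like Fthl17 rows. Pnma5, Xlr4a, Xlr3a, Xlr5a and Xlr3b (chrX:73033981-73292976) summed to 3.67 and 3.11 TPM in KH and to 91.7 and 91.6 TPM in DNMT3ABKO. A second X-linked run of 6 genes ended with Rhox5 (chrX:37209348-37808876) and summed to 35.1 and 37.4 TPM in KH and to 203 and 198 TPM in DNMT3ABKO. The run on the Y chromosome (chrY:670179-1286629) held 7 genes, among them Ddx3y, which was at 5.99 and 6.93 TPM in KH and at 41.7 and 39.2 TPM in DNMT3ABKO. Y-linked RNA belongs to the line as well as to the genotype, and these cannot be told apart.

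**Figure D2:**
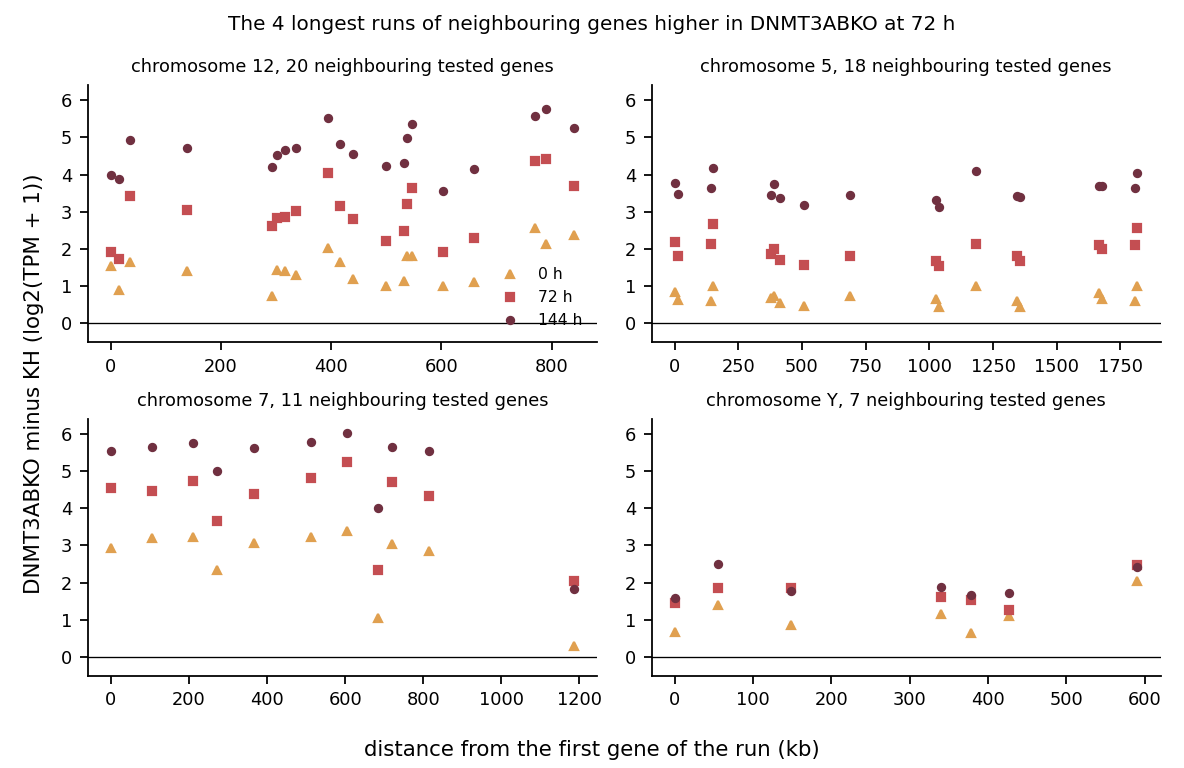
The 4 longest runs of neighbouring genes called higher in DNMT3ABKO at 72 h, with the distance of each gene from the first gene of its run (kb) on the horizontal axis and the difference DNMT3ABKO minus KH on the log2(TPM + 1) scale on the vertical axis. Triangles are 0 h, squares 72 h and circles 144 h. On chromosomes 12 and 5 each gene lies in the order 0 h, 72 h, 144 h from low to high, on chromosome 7 this holds for all but the last gene, and on the Y chromosome the 0 h point is the lowest for each gene.

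Germline genes outside these families were also higher in DNMT3ABKO. They divide into genes of the piRNA pathway, in which small RNAs guide silencing of transposons, and genes of meiosis. The promoters of 6 genes are shown first because promoter methylation in ES cells has been described for such genes. Each is the RefSeq sequence on GRCm38.p6 in a window of 300 bases around the start, on the strand of the gene, with each CG dinucleotide in capitals. Fkbp6 (chr5:135349995-135350294, minus strand) is of the piRNA pathway, Dazl (chr17:50293571-50293870, minus), Hormad1 (chr3:95559427-95559726, plus) and Smc1b (chr15:85131908-85132207, minus) are germ cell and meiosis genes, and Xlr3a (chrX:73097046-73097345, minus) and Pnma5 (chrX:73037054-73037353, minus) lie in the X-linked run.
Fkbp6: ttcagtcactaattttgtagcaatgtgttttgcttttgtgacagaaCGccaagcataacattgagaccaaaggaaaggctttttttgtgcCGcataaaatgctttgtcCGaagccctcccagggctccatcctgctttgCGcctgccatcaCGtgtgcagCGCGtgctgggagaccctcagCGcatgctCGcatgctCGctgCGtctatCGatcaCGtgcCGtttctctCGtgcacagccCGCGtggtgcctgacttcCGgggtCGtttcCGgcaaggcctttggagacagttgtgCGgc
Dazl: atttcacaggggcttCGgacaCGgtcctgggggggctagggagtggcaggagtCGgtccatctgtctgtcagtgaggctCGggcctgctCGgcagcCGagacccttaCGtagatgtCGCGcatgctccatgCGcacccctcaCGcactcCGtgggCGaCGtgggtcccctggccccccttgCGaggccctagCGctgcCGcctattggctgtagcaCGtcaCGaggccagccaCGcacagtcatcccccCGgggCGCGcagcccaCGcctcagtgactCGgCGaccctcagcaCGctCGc
Hormad1: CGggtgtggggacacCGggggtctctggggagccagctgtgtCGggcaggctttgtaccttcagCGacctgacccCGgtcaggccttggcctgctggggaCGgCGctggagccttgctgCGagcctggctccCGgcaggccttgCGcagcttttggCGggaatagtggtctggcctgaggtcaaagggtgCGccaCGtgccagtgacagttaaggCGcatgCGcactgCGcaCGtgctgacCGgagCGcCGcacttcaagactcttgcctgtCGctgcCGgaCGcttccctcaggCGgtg
Smc1b: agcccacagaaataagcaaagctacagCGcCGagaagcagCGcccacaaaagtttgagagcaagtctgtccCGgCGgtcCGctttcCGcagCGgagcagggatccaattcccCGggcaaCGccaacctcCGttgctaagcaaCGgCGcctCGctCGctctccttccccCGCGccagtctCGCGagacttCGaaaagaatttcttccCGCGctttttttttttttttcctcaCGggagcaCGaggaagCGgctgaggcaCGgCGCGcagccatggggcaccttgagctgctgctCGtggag
Xlr3a: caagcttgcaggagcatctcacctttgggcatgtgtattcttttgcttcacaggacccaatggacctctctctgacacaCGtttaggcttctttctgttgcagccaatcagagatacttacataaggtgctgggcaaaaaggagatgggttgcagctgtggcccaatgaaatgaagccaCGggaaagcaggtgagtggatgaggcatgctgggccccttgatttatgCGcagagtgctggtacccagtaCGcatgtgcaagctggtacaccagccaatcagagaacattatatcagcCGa
Pnma5: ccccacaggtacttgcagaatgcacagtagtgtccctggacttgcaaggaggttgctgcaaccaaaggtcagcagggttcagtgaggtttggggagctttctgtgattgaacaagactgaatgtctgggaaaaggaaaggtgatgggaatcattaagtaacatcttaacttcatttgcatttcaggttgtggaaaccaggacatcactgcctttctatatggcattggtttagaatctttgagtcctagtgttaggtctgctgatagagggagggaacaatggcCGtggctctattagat

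The 6 windows differed in CG content. Fkbp6 held 21 CG, Dazl 28, Hormad1 24 and Smc1b 29, against 5 in Xlr3a and 1 in Pnma5, and the median over 32851 RefSeq promoters was 7 (quartiles 3 and 20). The E-box CACGTG, which reads the same on both strands, occurred 2 times each in the Fkbp6 and Hormad1 windows and in 7.15% of all promoters. TCCCGC, a form of the E2F site searched on both strands, occurred in the Hormad1 and Smc1b windows and in 20% of all promoters. Of the 14 meiosis genes called higher by at least 1, 4 had CACGTG and 8 had TCCCGC in a RefSeq promoter, and their CG counts ran from 10 to 29. Of the 11 X-linked genes called higher by at least 1, 10 had a RefSeq promoter, with 1 to 20 CG. Of these 10, 1 had CACGTG and 1 had TCCCGC. The same counts were 1 and 1 of 4 in the piRNA list, 0 and 0 of 4 in the Rhox list and 0 and 1 of 13 in the 2-cell-like list. In these list counts a gene was scored where any of its RefSeq promoters held the letters, and its highest CG count was taken. The 7.15% and 20% are shares of single promoters, so these measures are unlike. A match of letters is a description of the window and not a binding site.

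In the piRNA pathway, 18 of 22 listed genes were tested, of which 9 were called higher (50% against 8.92% of all tested genes) and 2 lower (11.1% against 9.91%), with a median log2 difference of 0.30 against -0.04 over all genes. Where both lines had a mean of at least 1 TPM the counts were 7 and 1 of 15. Fkbp6, a co-chaperone of the piRNA loading step, was at 0.980 and 1.77 TPM in KH and at 62.3 and 62.2 TPM in DNMT3ABKO (log2 difference 4.76, SE 0.15, limma adjusted p = 2.1e-08). Tex19.1, expressed in placenta and germ cells and the most abundant member, rose from 52.1 and 53.5 TPM to 117 and 119 TPM. Asz1 rose from 0.133 and 0.145 TPM to 4.26 and 3.65 TPM. Piwil4, an Argonaute protein that carries piRNAs into the nucleus, rose from 0.752 and 0.534 TPM to 1.75 and 1.64 TPM. The 2 that fell were Tdrd1, from 1.78 and 1.68 TPM to 0.593 and 0.519 TPM, and Ddx4, the germ cell helicase, from 14.7 and 15.1 TPM to 9.27 and 8.39 TPM. Members of the same pathway thus lay on both sides.

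Of 47 genes listed for meiosis, 35 were tested, and 22 were called higher (62.9% against 8.92% of all tested genes) and 3 lower (8.57% against 9.91%), with a median log2 difference of 0.62. With a mean of at least 1 TPM in both lines, 19 of 31 were higher and 3 lower. Dazl, an RNA-binding protein needed for entry into meiosis, was at 7.16 and 5.82 TPM in KH and at 67.2 and 59.8 TPM in DNMT3ABKO (log2 difference 3.11, SE 0.20, limma adjusted p = 3e-06). Stra8, induced by retinoic acid at the start of meiosis, was at 3.07 and 3.47 TPM in KH and at 30.3 and 28.9 TPM in DNMT3ABKO. Hormad1, a protein of the meiotic chromosome axis, was at 12.4 and 16.2 TPM in KH and at 84.9 and 72.8 TPM in DNMT3ABKO. In all of these both DNMT3ABKO libraries were several times above both KH libraries.

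Smc1b, the meiotic cohesin subunit, rose from 5.19 and 5.0 TPM to 28.1 and 27.6 TPM, and Rec114, of the machinery that breaks DNA for recombination, from 1.31 and 0.899 TPM to 6.26 and 6.0 TPM. Rpl10l, a ribosomal protein gene used in spermatocytes, rose from 30.4 and 29.8 TPM to 104.8 and 98.8 TPM. Tuba3a, a testis tubulin whose copy Tuba3b is nearly identical, rose from 6.81 and 6.48 TPM to 47.3 and 48.1 TPM. The 3 that fell, named because they went against the list, were Sycp3, Adad2 and Meioc. Sycp3, a core part of the synaptonemal complex, fell from 5.70 and 6.52 TPM to 2.72 and 2.94 TPM.

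For Stra8, Dazl and Rpl10l among the meiosis genes above, the difference grew from 0 h to 72 h. In the order 0 h, 72 h and 144 h, the log2 difference was 1.08, 2.84 and 2.13 for Stra8 and 1.70, 3.11 and 3.28 for Dazl, and the change from 0 h to 72 h was called for these and for Rpl10l, the latter at 0.46. Hormad1 stood at 2.21, 2.39 and 2.26 and Smc1b at 2.03, 2.24 and 2.41 at these times, and the change was called for neither.

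In the Rhox cluster, homeobox genes of the reproductive tract and placenta, 6 of 32 listed genes were tested and 3 of these had a mean of at least 1 TPM in KH. Rhox5 was the only 1 of these 3 that was called, at 33.0 and 35.5 TPM in KH and at 183 and 178 TPM in DNMT3ABKO (log2 difference 2.37, SE 0.13, limma adjusted p = 1e-06). Rhox6 and Rhox9 were not called, with differences of 0.45 and -0.30, though Rhox9 was called lower with a pseudocount of 0.1 TPM (-0.38) and without the DNMT3ABKO libraries of 0 h. Rhox1 was at 0.548 and 0.886 TPM in KH and at 10.6 and 9.40 TPM in DNMT3ABKO, while Rhox2a was listed at 0 in both KH libraries and at 2.60 and 2.79 TPM in DNMT3ABKO. Rhox2a belongs to a set of near-identical copies, and its row is uncertain.

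The X-linked lymphocyte-regulated (Xlr) and cancer-testis families gave 12 tested genes of 32 listed, 11 of them with a KH mean below 1 TPM. Xlr3a was at 0.185 and 0.134 TPM in KH and at 22.8 and 22.1 TPM in DNMT3ABKO. Nxf3, a relative of the mRNA export factors, was at 1.08 and 0.861 TPM in KH and at 22.9 and 21.1 TPM in DNMT3ABKO, and Magea4, of a family first found as tumour antigens, at 0.0635 and 0.0766 TPM against 5.90 and 5.31 TPM. The 1 tested member that KH expressed, Mageb16, was not called (log2 difference -0.24) but was called lower with a replicate block, with median-ratio scaling and with only the 4 libraries of 72 h in the model. It was at 17.8 and 19.11 TPM in KH and 15.4 and 15.45 TPM in DNMT3ABKO. Summed over 15 Xlr rows, which are similar copies, the level was 1.98 and 1.24 TPM in KH and 63.6 and 61.6 TPM in DNMT3ABKO.

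**Figure D3:**
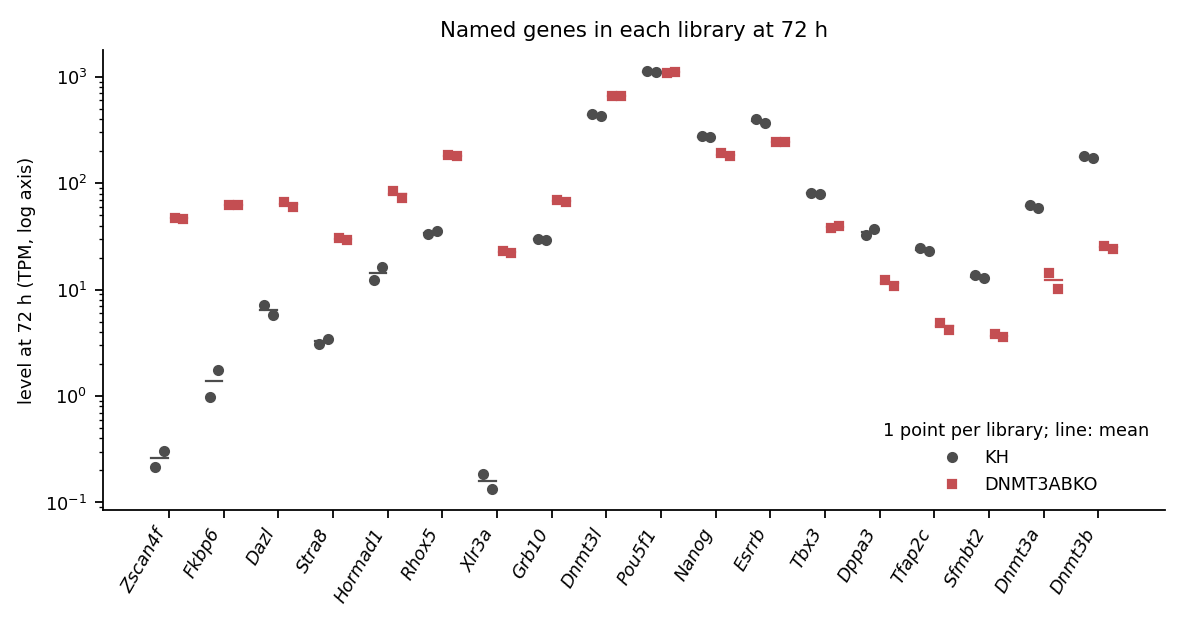
The level in TPM (log axis) of 18 genes in each of the 4 libraries at 72 h, with circles for KH, squares for DNMT3ABKO and a line at the mean of each pair. From Zscan4f to Dnmt3l the squares lie above the circles, for Pou5f1 they lie side by side, and from Nanog to Dnmt3b they lie below. The distance between the libraries of a line is small beside the distance between the lines for every gene shown other than Pou5f1.

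Transcription factors of the naive state and of germ cell precursors were among the genes lower in DNMT3ABKO. Tfap2c (chr2:172549593-172558622), which acts in trophoblast, naive pluripotency and primordial germ cells, was at 24.7 and 22.9 TPM in KH and at 4.84 and 4.19 TPM in DNMT3ABKO (log2 difference -2.17, SE 0.12, limma adjusted p = 1.2e-06). At 0 h it was at 50.6 and 60.2 TPM in KH and at 41.98 and 52.9 TPM in DNMT3ABKO, which overlapped, and the change of the difference was called (-1.95, limma adjusted p = 0.00053). Dppa3, a maternal factor that shields DNA from methylation by holding UHRF1 away, was at 32.4 and 37.4 TPM in KH and at 12.4 and 10.9 TPM in DNMT3ABKO at 72 h, against 108 and 113 TPM and 94.8 and 100.9 TPM at 0 h. Dppa3 and Tfap2c were lower at 72 h than at 0 h in every library of both lines, and lowest in DNMT3ABKO at 72 h.

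Of 29 genes listed for naive and core pluripotency, all were tested, 9 were called lower (31% against 9.91% of all tested genes) and 2 higher (6.9% against 8.92%), and the median log2 difference was -0.18. Without the DNMT3ABKO libraries of 0 h in the model, 14 were lower, and with 1 of the 4 libraries of 72 h left out, 6 to 8 were lower and 1 higher. Tbx3 was at 81.3 and 79.0 TPM in KH and at 38.1 and 39.7 TPM in DNMT3ABKO (log2 difference -1.02, SE 0.11, limma adjusted p = 2e-04). Esrrb was at 397 and 370 TPM in KH and at 244 and 246 TPM in DNMT3ABKO, and Tfcp2l1, which acts in the same network, at 113 and 118 TPM against 69.5 and 66.1 TPM. For Prdm14, a repressor of the de novo methyltransferases, the KH libraries were at 10.3 and 10.99 TPM and the DNMT3ABKO libraries at 6.68 and 6.21 TPM. All of these had DNMT3ABKO below KH with no overlap, as did every gene called lower and 40% of all tested genes.

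Nanog and Tcl1 were also lower, with log2 differences of -0.56 and -0.63, though the call of Nanog was lost in 2 of the 4 fits that left out 1 library. The 2 called higher were Tdgf1, the Nodal co-receptor, from 709 and 714 TPM to 1012 and 991 TPM, and Gbx2, from 55.3 and 52.6 TPM to 72.7 and 69.3 TPM. The core factor Pou5f1 was at 1132 and 1106 TPM in KH and at 1086 and 1109 TPM in DNMT3ABKO and was not called, nor was Zfp42 at 259 and 254 TPM against 256 and 258 TPM. For Tbx3, Esrrb, Prdm14, Tcl1 and Nanog the change of the difference from 0 h to 72 h was called, and none of the 5 was called lower at 0 h or at 144 h.

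**Figure D4:**
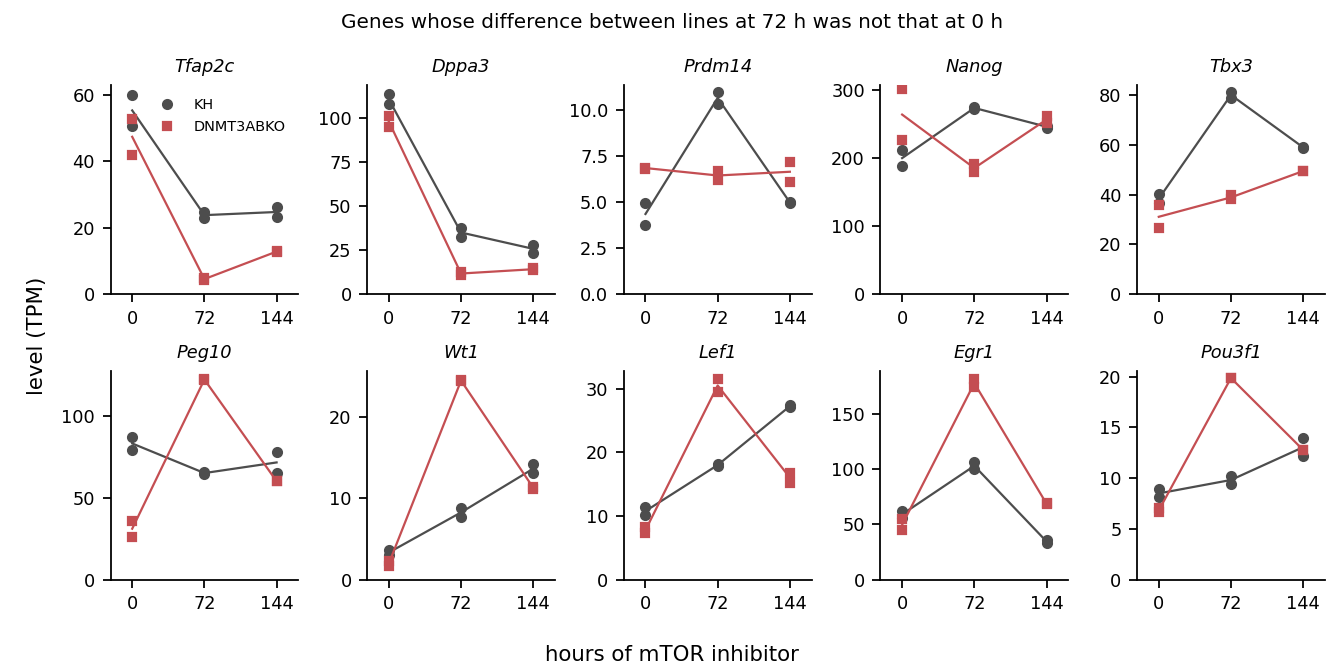
The level in TPM of 10 genes, chosen because the difference between the lines changed from 0 h to 72 h, against hours of mTOR inhibitor, with 1 point per library, circles for KH, squares for DNMT3ABKO and lines through the means. Each panel has its own vertical axis from 0. At 72 h the squares lie below the circles in Tfap2c, Dppa3, Prdm14, Nanog and Tbx3 and above them in Peg10, Wt1, Lef1, Egr1 and Pou3f1, and for the latter 5, Prdm14 and Nanog the means at 0 h lay in the opposite order.

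Genes of the formative epiblast, the stage that follows the naive one, moved in both directions, with 7 of 23 tested called higher (30.4% against 8.92% of all tested genes) and 3 lower (13%, near the 9.91% of all) and a median log2 difference of 0.10. With 1 of the 4 libraries left out, 4 to 6 were higher and 1 lower. Pou3f1 rose from 10.2 and 9.40 TPM in KH to 19.8 and 19.9 TPM in DNMT3ABKO (log2 difference 0.95, SE 0.091, limma adjusted p = 6.2e-05). Sox3 rose from 3.93 and 4.73 TPM to 8.95 and 9.08 TPM, and Wnt8a from 1.16 and 1.07 TPM to 2.20 and 2.50 TPM. T (brachyury), of the primitive streak, fell from 2.97 and 2.53 TPM to 0.512 and 0.825 TPM. Grhl2, an epithelial factor of the formative stage, rose from 39.4 and 39.1 TPM to 59.8 and 59.3 TPM. Wnt8a, Grhl2 and Lef1 were called lower in DNMT3ABKO at 0 h and higher at 72 h. At 144 h their log2 differences were -1.20, 0.35 and -0.73. In the list as a whole, 4 were called higher and 10 lower at 0 h (17.4% and 43.5%, against 4.57% and 3.96% of all tested genes). At 144 h 4 were higher and 8 lower (17.4% and 34.8%, against 10.3% and 15.2%).

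Readouts of Wnt, FGF and BMP signalling gave 7 called higher and 3 lower of 21 tested (33.3% and 14.3%, against 8.92% and 9.91% of all tested genes), with a median of 0.19, and 3 or 4 higher and 0 to 2 lower with 1 of the 4 libraries left out. Lef1, a Wnt effector, rose from 18.1 and 17.8 TPM in KH to 31.6 and 29.4 TPM in DNMT3ABKO. Egr1, an immediate early gene of ERK signalling, rose from 106 and 100 TPM to 182 and 174 TPM (log2 difference 0.78, SE 0.096, limma adjusted p = 0.00037), and its difference at 0 h was -0.25 and not called. The Wnt target Axin2 rose from 23.8 and 20.3 TPM to 28.4 and 30.1 TPM, Tcf7 from 25.1 and 22.6 TPM to 32.3 and 33.4 TPM, and Notum, a secreted Wnt antagonist, from 28.4 and 25.2 TPM to 42.4 and 40.4 TPM. Id3, a BMP target, fell from 56.8 and 53.4 TPM to 42.2 and 40.6 TPM. DNMT3ABKO lay beyond KH without overlap in each of these, as in every called gene. Of the 21 tested, 1 was higher and 4 lower at 0 h (4.76% and 19%, against 4.57% and 3.96% of all tested genes). At 144 h 2 were higher and 6 lower (9.52% and 28.6%, against 10.3% and 15.2%).

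Imprinted genes were called more often higher than lower, 12 against 1 of 51 tested (23.5% and 1.96%, against 8.92% and 9.91% of all tested genes), with a median log2 difference of 0.08. At 0 h 5 were higher and 7 lower (9.8% and 13.7%, against 4.57% and 3.96% of all tested genes). At 144 h 8 were higher and 8 lower (15.7% each, against 10.3% and 15.2%), so the lower share was near that of all genes. With 1 of the 4 libraries left out, 6 to 9 were higher. Grb10, a brake on growth factor receptors, rose from 29.95 and 29.2 TPM in KH to 69.4 and 66.8 TPM in DNMT3ABKO (log2 difference 1.18, SE 0.099, limma adjusted p = 2.4e-05). Mest, expressed from the paternal allele in mesoderm, rose from 0.614 and 0.516 TPM to 2.09 and 3.25 TPM. Cdkn1c, an inhibitor of cyclin-dependent kinases, rose from 29.8 and 30.5 TPM to 51.8 and 52.6 TPM, and its neighbour Phlda2 from 30.3 and 26.8 TPM to 45.0 and 45.5 TPM. Dlk1 rose from 4.53 and 4.71 TPM to 8.31 and 7.64 TPM, while Rian, the most abundant imprinted RNA and encoded in the same domain as Dlk1, was at 726 and 737 TPM in KH and at 734 and 750 TPM in DNMT3ABKO and was not called.

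The rise was not shared by the other times for each of these. The log2 difference of Cdkn1c was 0.01 at 0 h and -0.07 at 144 h against 0.77 at 72 h, and that of Peg10, a retrotransposon-derived gene of the placenta, -1.41 and -0.24 against 0.90. Mest, in contrast, stood at 1.10, 1.21 and 1.18 at 0 h, 72 h and 144 h. TPM do not separate the parental alleles. Several imprinted genes are also expressed in fibroblasts, and the part of these cells in the values of imprinted genes was not tested. The fibroblast marker sum at 72 h was 2064 and 1930 TPM in DNMT3ABKO and 2472 and 2420 TPM in KH.

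The imprinted gene that fell was Sfmbt2 (chr2:10370510-10595253, mm10), a Polycomb factor needed in trophoblast, whose intron holds a cluster of repeated micro-RNA genes. Sfmbt2 was at 13.6 and 12.7 TPM in KH and at 3.81 and 3.60 TPM in DNMT3ABKO (log2 difference -1.59, SE 0.13, limma adjusted p = 1.4e-05). Of the 119 micro-RNA rows inside the gene, 25 were tested, of which 21 had a DNMT3ABKO mean below 1 TPM. These 21 passed the filter only through KH and had to be lower in DNMT3ABKO, so the number called is not a result. Of the 4 rows with a mean of at least 1 TPM in both lines, 2 were called lower. Over the 119 rows the sums were 120 and 140 TPM in KH and 29.7 and 36.4 TPM in DNMT3ABKO. Their hairpins are near-identical copies and lie in an intron of the host, so the rows are not independent and may hold reads of the Sfmbt2 precursor RNA.

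Trophoblast genes, which in ES cells are mostly low, gave 7 called lower and 2 higher of 14 tested (50% and 14.3%, against 9.91% and 8.92% of all tested genes), with a median of -0.42. Besides Tfap2c, the keratins Krt8, from 8.83 and 6.89 TPM in KH to 1.93 and 2.03 TPM in DNMT3ABKO, and Krt18, from 8.67 and 8.50 TPM to 4.23 and 5.31 TPM, were lower, and so were Fgfr2, Bmp4, Tead4 and Gata2. The 2 called higher, Peg10 and Ascl2, are imprinted genes. Krt8 was already lower at 0 h, with a log2 difference of -1.80 against -1.56 at 72 h. Fgfr2, a receptor of the FGF family, was at 6.70 and 7.43 TPM in KH and at 3.92 and 3.31 TPM in DNMT3ABKO.

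Few genes of other lineages were called. Of 11 tested genes of primitive endoderm, Dab2 and Lama1 were called lower (18.2% against 9.91% of all tested genes) and none higher, and both calls were lost when any 1 of the 4 libraries was left out. Among 10 tested early neural genes, 1 was called higher and 1 lower (10% and 10%, near the 8.92% and 9.91% of all tested genes). Msi1 was higher, at 12.9 and 11.6 TPM in KH and 19.99 and 20.8 TPM in DNMT3ABKO, and Olig2 lower, at 16.5 and 15.5 TPM against 9.06 and 8.66 TPM. Of 58 clustered protocadherins 14 were tested, with Pcdhga1 called higher (7.14%, near the 8.92% of all tested genes) and none lower. That call was also lost without any 1 library, and 3 of the 14 had a DNMT3ABKO mean below 1 TPM.

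Sterol synthesis genes were lower as a group in the sense that 10 of 24 tested were called lower and none higher, against 9.91% and 8.92% over all genes, with a median log2 difference of -0.26. With 1 of the 4 libraries left out, 3 to 5 were lower. Idi1, of the isoprenoid step, fell from 22.4 and 23.1 TPM in KH to 15.03 and 13.4 TPM in DNMT3ABKO (log2 difference -0.64, SE 0.12, limma adjusted p = 0.0049). Lss, Msmo1 and Insig1 fell by 0.53, 0.53 and 0.51 on the log2 scale. None of the 10 was called at 0 h and all 10 were called lower at 144 h, in libraries that the 72 h comparison did not hold. In the whole list, 1 was higher and 0 lower at 0 h (4.17% and 0%, against 4.57% and 3.96% of all tested genes). At 144 h 0 were higher and 19 of 24 lower (79.2%, against 15.2%). Fibroblast and macrophage markers were also lower at 72 h, and their part in these values was not tested.

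Lysosomal genes gave 7 lower and 1 higher of 35 tested (20% and 2.86%, against 9.91% and 8.92% of all tested genes), with a median of -0.14. With 1 of the 4 libraries left out, fewer members were called in either direction, and fewer genes were called over all tested genes as well. Gpnmb, a membrane glycoprotein strongly expressed in macrophages, fell from 19.04 and 18.99 TPM in KH to 9.72 and 10.1 TPM in DNMT3ABKO, and Ctsb, the protease cathepsin B, from 40.6 and 40.3 TPM to 27.2 and 27.4 TPM. Psap, the saposin precursor, fell from 128 and 127 TPM to 89.7 and 88.1 TPM. The macrophage marker Lyz2 fell at the same time from 104.4 and 104.5 TPM to 63.1 and 66.6 TPM, and at 144 h both Gpnmb and Lyz2 were called higher in DNMT3ABKO. The part of these cells in the lysosomal values was not tested.

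For interferon response and MHC class I genes the counts were 3 higher and 5 lower of 26 tested (11.5% and 19.2%, where 8.92% and 9.91% of all tested genes also give the background of the lists that follow), with Bst2 higher and Ifi27 and Irf9 lower, and 1 or 2 in each direction with 1 of the 4 libraries left out. Of 25 genes that silence retroelements 1 was higher, Zfp809, at 43.0 and 43.8 TPM in KH and 69.4 and 65.2 TPM in DNMT3ABKO, and 1 lower, Suv39h1, at 22.2 and 20.9 TPM against 13.3 and 15.1 TPM. Of 19 genes of the Dppa family and of the Polycomb complex PRC1.6, which represses germline genes in ES cells, 1 was higher, Dppa4, and 4 lower, Dppa3, Tfdp1, Wdr5 and Hdac1, of which 1 or 2 stayed lower and none higher with 1 of the 4 libraries left out. Among p53 targets 3 of 18 (16.7%) were higher, Eda2r, Bbc3 and Pmaip1, none lower, and all 3 calls were lost without any 1 of the 4 libraries, while 5 were higher and 3 lower without the DNMT3ABKO libraries of 0 h. Of 19 cyclins and inhibitors of G1, Cdkn1c and Ccnd2 were higher and Cdkn1b lower, the latter from 28.7 and 28.7 TPM to 19.8 and 18.8 TPM.

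**Figure D5:**
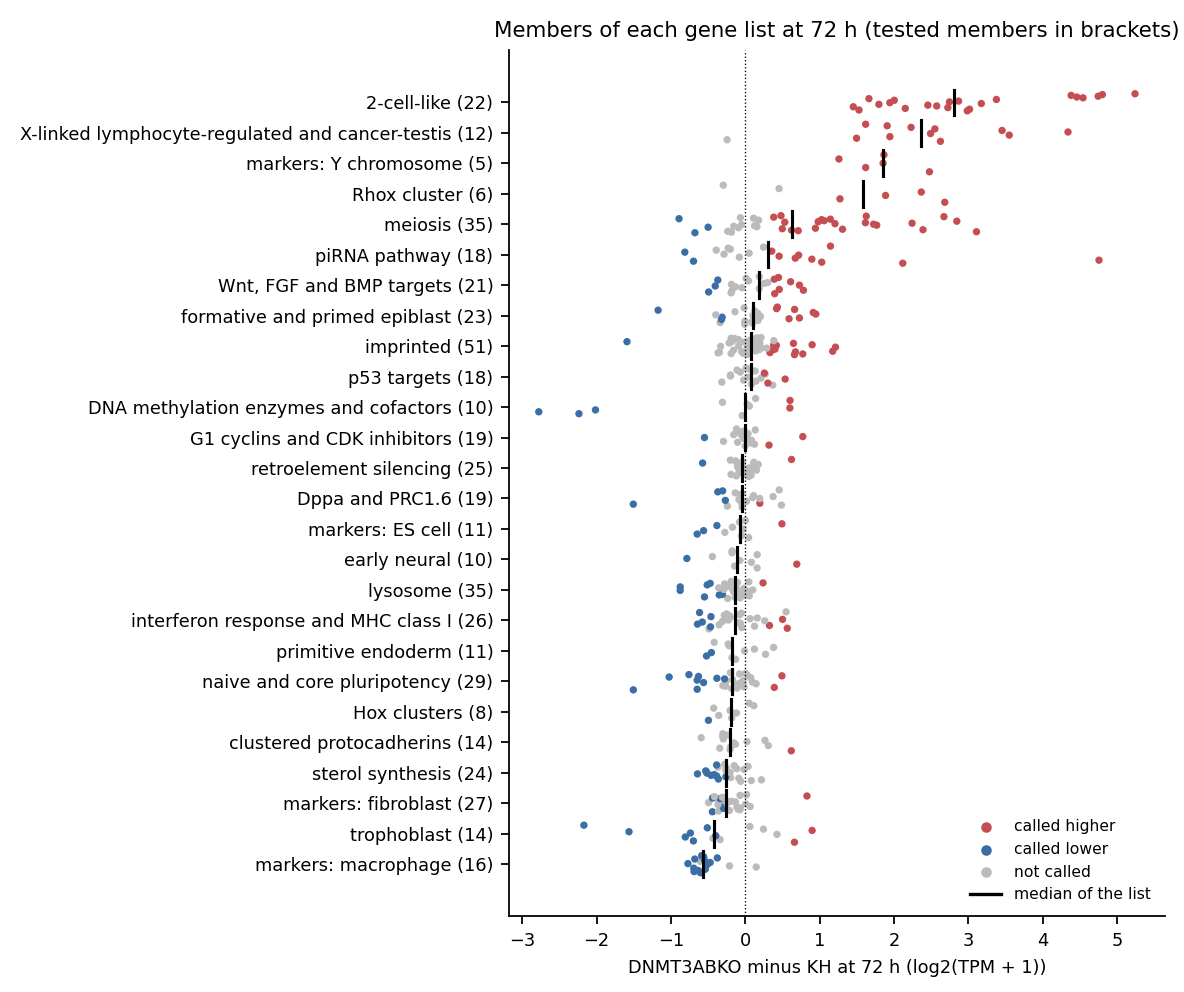
The difference DNMT3ABKO minus KH at 72 h on the log2(TPM + 1) scale for every tested member of each gene list and marker list, with 1 point per gene, colours for the call and a bar at the median of the list. Lists are ordered by their median, from 2-cell-like genes (2.81) to macrophage markers (-0.57). The tested members of the 2-cell-like and X-linked lists passed the filter mostly through DNMT3ABKO, so their position at the top is set in part by the filter.

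Several of the largest differences fell outside these lists. Efhc2, an X-linked gene of a ciliary protein, was at 0.562 and 0.383 TPM in KH and at 16.8 and 17.4 TPM in DNMT3ABKO. Zfp951 was at 3.40 and 2.86 TPM in KH and at 34.2 and 33.2 TPM in DNMT3ABKO, and the antisense RNA Ptprtos at 1.41 and 1.596 TPM against 16.8 and 17.6 TPM. On the lower side, Mcf2, a guanine nucleotide exchange factor on the X chromosome, was at 33.6 and 32.1 TPM in KH and at 4.39 and 4.90 TPM in DNMT3ABKO. Rbm47, an RNA-binding protein, was at 25.9 and 26.8 TPM against 6.11 and 5.69 TPM, and Plac8 at 9.92 and 11.04 TPM against 2.24 and 3.28 TPM.

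Fgfbp1, a carrier of secreted FGF, was at 14.9 and 14.7 TPM in KH and at 3.97 and 4.04 TPM in DNMT3ABKO. Gstm2 was at 12.1 and 11.4 TPM against 3.21 and 3.95 TPM, and Mobp at 3.63 and 3.46 TPM against 0.583 and 0.751 TPM. The other 3 among the 15 lowest had uneven values or a row that shares its sequence with another gene. Pagr1b was at 10.7 and 4.35 TPM in KH and listed at 0 in both DNMT3ABKO libraries, Zfp935 was at 1.03 and 6.56 TPM in KH and at 0 and 0.233 TPM in DNMT3ABKO, and Fdx1l was at 16.3 and 16.6 TPM against 3.85 and 4.60 TPM with an SE of 0.45 on the log2 scale.

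In absolute TPM the largest differences were of abundant genes. Higher in DNMT3ABKO were Actg1, cytoplasmic actin, at 1486 and 1436 TPM in KH and 1828 and 1865 TPM in DNMT3ABKO, then Gm47283, Tdgf1, Dnmt3l and Gm21887. Lower were the nuclear RNA Malat1, at 2006 and 2102 TPM in KH and 1665 and 1517 TPM in DNMT3ABKO, Eno1, the glycolytic enolase, at 1049 and 1019 TPM against 745 and 766 TPM, and Rpl13, Hist1h4k and Hist1h2br. Hist1h2br was at 467 and 917 TPM in the KH libraries, a spread wider than the gap of its first library to DNMT3ABKO at 236 and 243 TPM, and histone genes are near-identical copies. By chromosome, the median log2 difference lay between -0.07 and 0.08 on all but chromosome 8 (-0.13, with 44 genes higher and 126 lower of 789) and the Y chromosome (1.46 over 11 genes). Chromosome 8 stood at -0.14 at 0 h and at -0.18 at 144 h.

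Differences at 72 h were next set against the same difference at 0 h and at 144 h, whose libraries were separate. Over the same 15689 genes, 717 (4.57%) were called higher and 621 (3.96%) lower at 0 h, and 1614 (10.3%) higher and 2387 (15.2%) lower at 144 h. Of the 1400 genes higher at 72 h, 486 (34.7%) were called higher at 0 h and 869 (62.1%) at 144 h. These were 67.8% of the genes called higher at 0 h and 53.8% of those at 144 h. Of the 1554 genes lower at 72 h, 248 (16%) were called lower at 0 h and 871 (56%) at 144 h, which were 39.9% and 36.5% of the genes called lower at those times. The counts are across genes, which are not independent. Without the second DNMT3ABKO library of 0 h, 4932 genes were called at 0 h in place of 1338, so that the shares at 0 h rest on that library.

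Size set the higher genes apart by time. The 387 genes higher by at least 1 at 72 h had a median log2 difference of 1.68 at that time, against 0.81 at 0 h and 2.17 at 144 h, though the 72 h value was bounded by the choice of the genes. Of these, 276 (71.3%) were called higher at 0 h and 360 (93%) at 144 h. The 74 genes lower by at least 1 had medians of -0.53, -1.21 and -0.71 at 0 h, 72 h and 144 h, and 34 (45.9%) and 45 (60.8%) were called lower at 0 h and 144 h. Zscan4f followed the first order, with 3.40, 5.24 and 6.02, while Tfap2c was farthest from 0 at 72 h, with -0.22, -2.17 and -0.90.

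The difference between the lines changed from 0 h to 72 h for 746 genes, 475 upward in DNMT3ABKO relative to KH (3.03%) and 271 downward (1.73%). Without the second DNMT3ABKO library of 0 h the count was 2705. This contrast shares the 72 h libraries, so only values are set side by side. At 57 genes the difference was called at both times with opposite sign, 31 of them higher in DNMT3ABKO at 72 h. Wt1, a transcription factor of the urogenital ridge, was at 3.07 and 3.59 TPM in KH and at 1.65 and 2.32 TPM in DNMT3ABKO at 0 h, and at 8.78 and 7.71 TPM against 24.4 and 24.4 TPM at 72 h. Peg10 was at 79.4 and 87.2 TPM against 26.3 and 35.96 TPM at 0 h, and at 65.6 and 64.8 TPM against 123 and 122 TPM at 72 h. Trh, encoding thyrotropin-releasing hormone, went the other way, from 330 and 371 TPM in KH and 480 and 493 TPM in DNMT3ABKO at 0 h to 357 and 362 TPM against 148 and 147 TPM at 72 h. Wt1, Trh and Peg10 were named for this reversal, after their values were seen.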

How the data were processed

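RNA was measured in 12 libraries, 2 for each of 2 lines at 0 h, 72 h and 144 h, after spike-in of ERCC RNA and ribosomal RNA depletion. Per the submitters' processing notes and the methods, the authors trimmed reads with cutadapt 2.4, aligned them to mm10 with STAR 2.7.3a and quantified GENCODE genes with StringTie 2.0, and they deposited 1 table of TPM per library. The methods give other releases of STAR and StringTie than the notes do. The deposited TPM are not scaled to the spike-in and carry no depth, so no counting interval is given and the count test of the study could not be used. A level in TPM is therefore relative to the other RNA of the same library.

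Rows repeating a gene ID were summed. Genes whose average over the 4 libraries of 72 h reached 1 TPM were kept, and log2(TPM + 1) was fitted with limma 3.58.1 (R 4.3.3; lmFit, eBayes with trend) over all 12 libraries in 6 groups. A gene was called where the adjusted p, by Benjamini-Hochberg over all 15689 genes, was under 0.05. All differences are on the log2(TPM + 1) scale, which understates the change of low genes. The fits were tested on simulated data in which each gene had the same spread in every group. The wider spread of DNMT3ABKO at 0 h was not simulated. An exact permutation test of 2 against 2 libraries cannot give a p below 0.333 and was not used. Experiments were repeated independently at least 2 times according to the study, but the labels do not say that these replicates were separate cultures. The p-values therefore measure the spread between these samples, which may be technical. The study states that samples of a biological replicate were processed in parallel, but not that the numbers in the labels are these replicates. Deviations of same-numbered libraries from their group means correlated at r = -0.0664 among libraries of 72 h, 0.325 among those of 0 h and 0.047 among those of 144 h. Alternatives were another pseudocount, other filters, median-ratio scaling, fewer groups in the model, a replicate block, a minimum difference and leaving out each library.

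Members and gene lists were chosen with earlier results of these data known. Some listed genes are not reported here. Listed symbols that did not match the files (Six6os1, Xmr, Phf17, Sting1, Tasor and Pcdha10) were dropped. Genes are named for belonging to the methylation machinery, for being among the 15 called genes with the highest or the lowest difference (both lines' libraries apart; without predicted genes, unnamed clones, small RNAs and pseudogenes; at most 2 per symbol stem), for the largest differences or the highest level in a list, for lying in a run of neighbours, or for the largest differences in TPM. Others were named after their values were seen, as examples of a count or as sign reversals. Promoters are from RefSeq (GRCm38.p6), matched by symbol for 77.6% of the tested protein-coding genes, too few to compare promoters over all genes. Tables were made with Python 3.11.15, pandas 2.3.3 and NumPy 2.4.6, and figures with matplotlib 3.10.9.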

Additional observations from a re-analysis of the deposited data

Results flagged for a closer look

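The difference between DNMT3ABKO and KH changed from 0 h to 72 h for 54 of the 134 genes named above, by the interaction contrast of limma with an adjusted p under 0.05 over all genes. Over all tested genes, 3.03% changed upward and 1.73% downward. Many of the named genes were chosen by their values at 72 h, which this contrast shares, so the number called among them is not a result. Each value below is the log2(TPM + 1) difference at 72 h minus that at 0 h, so that a positive value means a relative rise in DNMT3ABKO, and 33 were positive and 21 negative. The contrast rests on the DNMT3ABKO libraries of 0 h, the least alike pair of the series.

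Among genes of the methylation machinery the change was 0.432 for Dnmt3b, 0.643 for Dnmt3l and 0.824 for Tet3. Among germline genes it was 0.457 for Tex19.1, 0.463 for Rpl10l, 0.815 for Asz1, 1.41 for Dazl and 1.77 for Stra8. For 2-cell-like genes and for genes of the chromosome 3 and 12 runs it was 1.2 for Usp17le, 1.54 for Duxf3, 1.66 for Tmem92, 1.84 for Zscan4f, 1.02 for Tdpoz3 and 1.7 for BB287469. X-linked genes lay on both sides, with 0.654 for Pnma5, 0.993 for Magea4 and 1.15 for Nxf3 against -0.68 for Rhox2a and -1.25 for Rhox9.

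Of 29 tested naive and core pluripotency genes, 7 changed downward and 1 upward (24.1% and 3.45%, against 1.73% and 3.03% of all tested genes). The median change of this list was -0.09. Its named members changed by -1.33 for Dppa3, -1.21 for Prdm14, -0.948 for Nanog, -0.775 for Tcl1, -0.714 for Tbx3, -0.507 for Esrrb and 0.738 for Tdgf1. Tfap2c, of the trophoblast list, changed by -1.95. In the formative list 8 of 23 tested changed upward and 3 downward (34.8% and 13%, against 3.03% and 1.73% of all tested genes). Among signalling readouts 4 of 21 changed upward and 1 downward (19% and 4.76%). Named members changed by 0.617 for Sox3, 1.23 for Pou3f1, 1.31 for Grhl2, 1.52 for Wnt8a, 0.841 for Axin2, 1.04 for Egr1 and 1.15 for Lef1, and the early neural gene Msi1 by 0.66. Of imprinted genes, the values were 0.729 for Grb10, 0.761 for Cdkn1c, 0.85 for Ascl2 and 2.3 for Peg10. In the trophoblast list Fgfr2 changed by -0.658.

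The lysosomal genes Gpnmb, Ctsb and Psap changed by -0.634, -0.568 and -0.473 and the macrophage marker Lyz2 by -0.465. Ifi27, of the interferon list, changed by -0.924, and the p53 target Pmaip1 by 0.495. Outside the lists, the change was -4.83 for Pagr1b, -2.01 for Hist1h2br, -1.76 for Trh, -1.28 for Gstm2, -0.976 for Rbm47, -0.907 for Fgfbp1, 1.09 for Zfp951 and 2 for Wt1. Pagr1b and Hist1h2br had uneven values between the KH libraries of 72 h.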

How the results depend on the processing

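With 2 libraries a group and no depth in TPM, the counts of called genes moved with the libraries that set the spread, and the cause was not tested. At 72 h, 2954 genes became 5067 (2245 higher, 2822 lower) with only the groups compared in the model, 4475 (1956 and 2519) without the DNMT3ABKO libraries of 0 h, an alternative chosen after seeing the data, 461 with a log2 difference of at least 1 as well, and 1336 to 1457 without 1 library, of which 800 to 860 were higher. With no filter they were 3454 (2032 higher, 1422 lower). At 0 h, 1338 genes became 268 with only the groups compared, 232 with the minimum difference and 665 to 4932 without 1 library (764 without KH replicate 1, 665 without KH replicate 2, 4932 without DNMT3ABKO replicate 2). At 144 h, 4001 became 504 with the minimum difference and 2192 to 2308 without 1 library. For the change from 0 h to 72 h, 746 became 1265 with median-ratio scaling, 383 with only the groups compared, 268 with the minimum difference and 331 to 2705 without 1 library (461 without KH replicate 1 of 0 h, 331 to 376 without a library of 72 h, 2705 without DNMT3ABKO replicate 2 of 0 h). A replicate block gave 3533 called genes at 72 h, against 1813 for 0 h, 4684 for 144 h and 870 for the change, and among the named genes it changed the call of Mageb16 (-0.2446, then called) and no other call at 72 h. Median-ratio scaling raised the median of all genes by 0.0331 and gave 1981 higher and 1800 lower at 72 h. The direction of the uncalled differences of Pou5f1 (0.007105 with that scaling), Tet1 (-0.01678 to 0.06957 without 1 library) and Zfp42 (-0.01296 to 0.01834) was not fixed. Of 123 named genes called at 72 h, 89 kept the call without any 1 library, 34 lost it at least once and 20 lost it each time, namely Actg1, Bbc3, Ccnd2, Dab2, Dppa4, Eda2r, Fdx1l, Gata2, Gbx2, Gm21887, Hdac1, Insig1, Lama1, Meioc, Pcdhga1, Pmaip1, Rpl13, Tcf7, Tead4 and Wdr5. The call was lost in 1 to 3 of the 4 fits for Ascl2, Axin2, Ddx4, Hist1h4k, Id3, Ifi27, Irf9, Malat1, Msmo1, Nanog, Phlda2, Tfdp1, Wnt8a and Zfp935.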
